A study of Mus musculus with 20 samples.

Results

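The 10 vehicle libraries of a 20-library series were compared between batches, 6 libraries of batch 1 against 4 libraries of batches 2 and 3. BV-2 is an immortalized mouse microglial line, and the cells were either wild type or carried a label of RGS10 knockout. RGS10 is a GTPase-activating protein that shuts off G protein signals. Vehicle meant medium alone for 48 h, in DMEM with 10% fetal bovine serum, and the IFNγ-treated libraries (10 ng/mL) were left aside. Each genotype gave 3 libraries in batch 1, 1 in batch 2 and 1 in batch 3. The members were all the vehicle libraries, picked out by their labels. They and the gene lists were chosen with earlier results of these data known. The labels give the batch as a number only. They do not say whether it marks a passage, a culture date, an RNA extraction or a sequencing run, and they name no clone for the knockout.

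In the libraries labelled as knockout the Rgs10 transcript was lower but present. Rgs10 stood at 59.1, 63.9 and 68.9 CPM (read counts scaled to the size of the library) in wild-type batch 1 and at 78.2 and 66.2 in wild-type batches 2 and 3. In the knockout it stood at 32.2, 27.2 and 29.9 CPM in batch 1 and at 37.3 and 24.3 CPM in batches 2 and 3. The genotypes did not overlap in any batch, and Rgs10 did not pass the test between batches (log2 change 0.11, SE 0.11, edgeR adjusted p = 0.429). Poly(A) counts over a whole gene do not show whether an edited transcript makes protein, and the edited part of the gene is not given in the labels.

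Resting microglia and macrophages hold a low level of interferon-stimulated transcripts. Type I interferon acts through factors that include STAT2 and IRF9, which bind the interferon-stimulated response element and drive antiviral genes such as the Ifit and Mx families. The guanylate-binding proteins (GBPs) and the immunity-related GTPases (IRGs), which attack vacuoles that hold microbes, respond to both interferon types. Low oxygen stabilises hypoxia-inducible factor (HIF), which binds the core motif ACGTG and raises glucose transporters, glycolytic enzymes and the mitophagy protein BNIP3. Cycling cells express DNA replication genes under E2F control in S phase and spindle genes at mitosis.

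The promoters below stand for 3 of the programmes whose genes differed between batches, with Ifit1, Ifit3 and Gbp3 from the interferon group, Ankrd37 and Slc2a1 from the HIF group, and Mcm6 from the replication group. Each is a RefSeq window of 300 bases on GRCm38.p6, from 250 bases before to 50 bases after the start of the gene, printed 5′ to 3′ on the strand of the gene. Capitals mark matches, on either strand, to GAAA, any 2 bases and GAAA (a form of the interferon-stimulated response element) in the interferon group, to ACGTG in the HIF group, and to TTTCCCGC, TTTGGCGC or TTTCGCGC (forms of the E2F site) in Mcm6. The windows are Ifit1 at chr19:34640639-34640938, plus strand, Ifit3 at chr19:34583279-34583578, plus strand, and Gbp3 at chr3:142559794-142560093, plus strand. RefSeq gives Gbp3 another window, at chr3:142560106-142560405, which held 0 matches and is not printed. Those of the other genes are Ankrd37 at chr8:45999801-46000100, minus strand, Slc2a1 at chr4:119108495-119108794, plus strand, and Mcm6 at chr1:128359656-128359955, minus strand.
Ifit1: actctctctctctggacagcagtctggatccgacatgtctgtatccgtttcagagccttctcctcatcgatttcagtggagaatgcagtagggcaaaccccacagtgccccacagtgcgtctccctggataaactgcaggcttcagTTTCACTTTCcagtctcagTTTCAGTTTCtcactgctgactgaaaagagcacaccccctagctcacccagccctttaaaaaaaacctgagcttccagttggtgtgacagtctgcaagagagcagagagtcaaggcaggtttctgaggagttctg
Ifit3: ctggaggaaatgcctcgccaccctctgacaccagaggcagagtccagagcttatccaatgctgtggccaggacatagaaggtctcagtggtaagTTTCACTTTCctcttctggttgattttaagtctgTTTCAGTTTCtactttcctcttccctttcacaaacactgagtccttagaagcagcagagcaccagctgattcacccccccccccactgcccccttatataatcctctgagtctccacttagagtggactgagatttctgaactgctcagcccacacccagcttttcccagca
Gbp3: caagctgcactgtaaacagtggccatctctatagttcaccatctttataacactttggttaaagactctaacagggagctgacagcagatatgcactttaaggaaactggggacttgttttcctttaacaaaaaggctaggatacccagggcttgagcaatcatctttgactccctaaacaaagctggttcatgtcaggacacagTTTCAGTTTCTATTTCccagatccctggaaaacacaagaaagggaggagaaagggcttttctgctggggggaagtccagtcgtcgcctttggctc
Ankrd37: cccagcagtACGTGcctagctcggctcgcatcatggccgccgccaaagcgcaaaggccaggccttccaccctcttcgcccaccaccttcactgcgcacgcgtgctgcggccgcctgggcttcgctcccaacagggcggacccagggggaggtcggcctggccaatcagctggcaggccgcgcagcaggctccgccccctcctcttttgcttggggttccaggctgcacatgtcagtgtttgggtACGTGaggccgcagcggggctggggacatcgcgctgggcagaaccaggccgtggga
Slc2a1: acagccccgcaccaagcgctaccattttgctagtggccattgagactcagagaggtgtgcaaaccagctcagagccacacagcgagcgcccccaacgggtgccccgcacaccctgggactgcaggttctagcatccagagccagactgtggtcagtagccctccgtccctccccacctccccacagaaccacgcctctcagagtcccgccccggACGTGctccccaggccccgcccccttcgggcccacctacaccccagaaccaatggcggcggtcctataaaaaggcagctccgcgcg
Mcm6: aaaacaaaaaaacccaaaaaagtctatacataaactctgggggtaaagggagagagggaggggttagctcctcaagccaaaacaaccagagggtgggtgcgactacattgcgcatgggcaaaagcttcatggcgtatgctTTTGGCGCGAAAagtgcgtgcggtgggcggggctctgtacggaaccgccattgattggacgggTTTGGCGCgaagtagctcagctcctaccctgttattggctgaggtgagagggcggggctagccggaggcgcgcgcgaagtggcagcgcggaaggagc

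The interferon motif stood in 14 of 25 genes with a window among the tested antiviral genes, or 15 of 27 windows (55.6%), and in 8 of 9 genes with a window among the GBP and IRG genes, or 8 of 10 windows (80%). Of all 32851 windows, 3.44% held it. ACGTG stood in 18 of 22 genes with a window in the HIF list, or 20 of 33 windows (60.6%), against 19.62% of all windows. The 3 E2F forms stood in 10 of 25 genes with a window of the replication list. That was 10 of 28 windows (35.7%), against 1.84% of all windows. In Mcm6 a match to TTTGGCGC overlaps a match to TTTCGCGC on the other strand. Lists of this kind are built from known targets, so the shares describe the lists and are not a result of the batches.

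The vehicle libraries held 15866749 to 26039814 counts, so 3 reads corresponded to 0.115 to 0.189 CPM. The first principal component, with 55.5% of the variance, separated the genotypes, and the second, with 22.9%, separated batch 1 from batches 2 and 3. The share of counts from mitochondrial genes was 0.238% to 0.380% in wild-type batch 1 and 0.152% to 0.219% in knockout batch 1. It was 0.871% and 0.817% in the wild-type and knockout libraries of batch 2, and 0.371% and 0.409% in those of batch 3. The mitochondrial share thus stood highest in batch 2, while the wild-type library of batch 3 lay within the range of wild-type batch 1. Malat1, a long RNA kept in the nucleus, and Neat1, the scaffold of nuclear paraspeckles, were also highest in batch 2. Neat1 was above every batch 1 library of its genotype in all 4 later libraries (log2 change 1.5, SE 0.17, edgeR adjusted p = 5.46e-05). Such separation upward held in 16.4% of the genes tested. The part of these measures in the differences below was not tested, and the counts of the lists below are also given without batch 2.

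**Figure D1:**
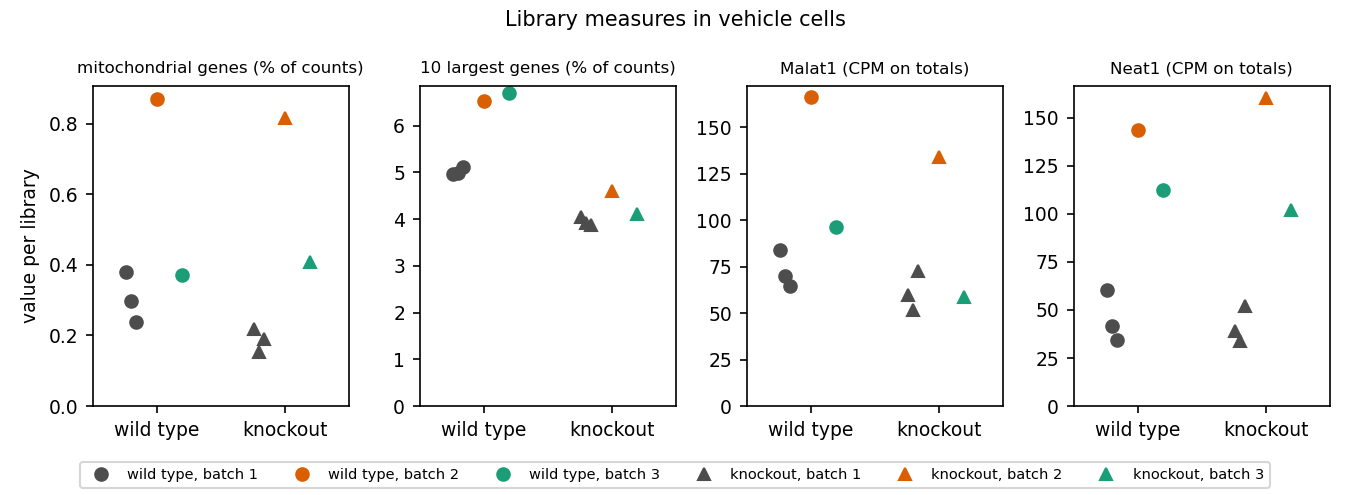
Library measures in the 10 vehicle libraries, as the share of counts from mitochondrial genes and from the 10 largest genes (percent) and as Malat1 and Neat1 CPM of the library total. Each point is 1 library, and batch 2 has the highest mitochondrial share in both genotypes, 0.871% and 0.817%.

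The microglial and macrophage markers were present in all 10 libraries. Spi1, the transcription factor PU.1, ranged from 247 to 556 CPM, Csf1r, the CSF1 receptor, from 355 to 962 CPM, Cd68 from 559 to 931 CPM and Tyrobp, the adaptor of TREM2, from 211 to 335 CPM. Of the markers of homeostatic microglia, P2ry12 reached only 0.783 to 7.83 CPM and Tmem119 5.77 to 18.5 CPM, and Sall1 had no read. Of 72 markers in 8 lists of other cell types, 30 had no read in any vehicle library and 19 were high enough to be tested. Of those 19, 4 were higher in the later batches and 0 lower (background 22.6% and 23.3%). Fibroblast and endothelial markers summed to 350 to 374 CPM in knockout batch 1 and 231 to 393 CPM later. In the wild type they summed to 27.9 to 34.7 CPM and then 39.7 to 41.8 CPM. In bulk RNA, fewer cells of a type and less RNA per cell cannot be told apart.

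Many of the expressed genes differed between batches, in about equal numbers in each direction. With genotype in the model, 6309 of 13745 tested genes (45.9%) passed edgeR's quasi-likelihood test at a Benjamini-Hochberg adjusted p under 0.05. Of these, 3112 (22.6% of the genes tested) were higher in batches 2 and 3 and 3197 (23.3%) were lower. Changes beyond 1 log2 unit, or 2-fold, were more often upward, with 823 genes higher and 252 lower. Scaling by plain library totals moved the higher share of the called genes from 49.3% to 59.7%, and the median over all genes to 0.09. Without batch 2 the count called was 4214. In the TMM-scaled fit the median over all genes was 0.02. The shares of 22.6% and 23.3% are the background for the list counts below from the fit with all vehicle libraries and genotype in the model. A list is described only by its counts and its median beside its background. Every later library lay above every batch 1 library of its genotype, in both genotypes, in 2255 genes (16.4%), and below in 2542 (18.5%). Those shares are the background where such separation is given for a gene. Counts from other fits have other backgrounds. For list counts given without batch 2, the background was 2064 genes higher and 2150 lower of 14398 tested. Separate cultures are not described for the replicates, which carry the word biological, so the p-values measure the spread between these libraries, with 1 library per genotype in each later batch.

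Batches 2 and 3 each differed from batch 1 in many genes. Against batch 1, 4847 genes (35.3%) passed the test for batch 2 and 4365 (31.8%) for batch 3. The comparisons share the batch 1 libraries. Without the wild-type library of the later batch these counts were 1245 and 1333, and without the knockout library of batch 2 the first was 2746. With plain library totals the higher share of the calls was 58.8% for batch 2 and 62% for batch 3, against 49.6% and 49.3%. Between batches 2 and 3, 5 genes (0.0364%) passed, with 691 at an unadjusted p under 0.05, 32 by DESeq2 and 5 by limma-voom. Read counts of library pairs within a genotype differed least within batch 1, with a chi-square per degree of freedom of 4.2 to 14.4. In the wild type the value was 15.2 between batches 2 and 3, 92.8 to 106 between batches 1 and 2, and 120 to 134 between batches 1 and 3. In the knockout it was 32.8 between batches 2 and 3 and 36.2 to 36.8 between batches 1 and 3, so the distances were similar, while batches 1 and 2 differed by 65.7 to 70.5.

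**Figure D2:**
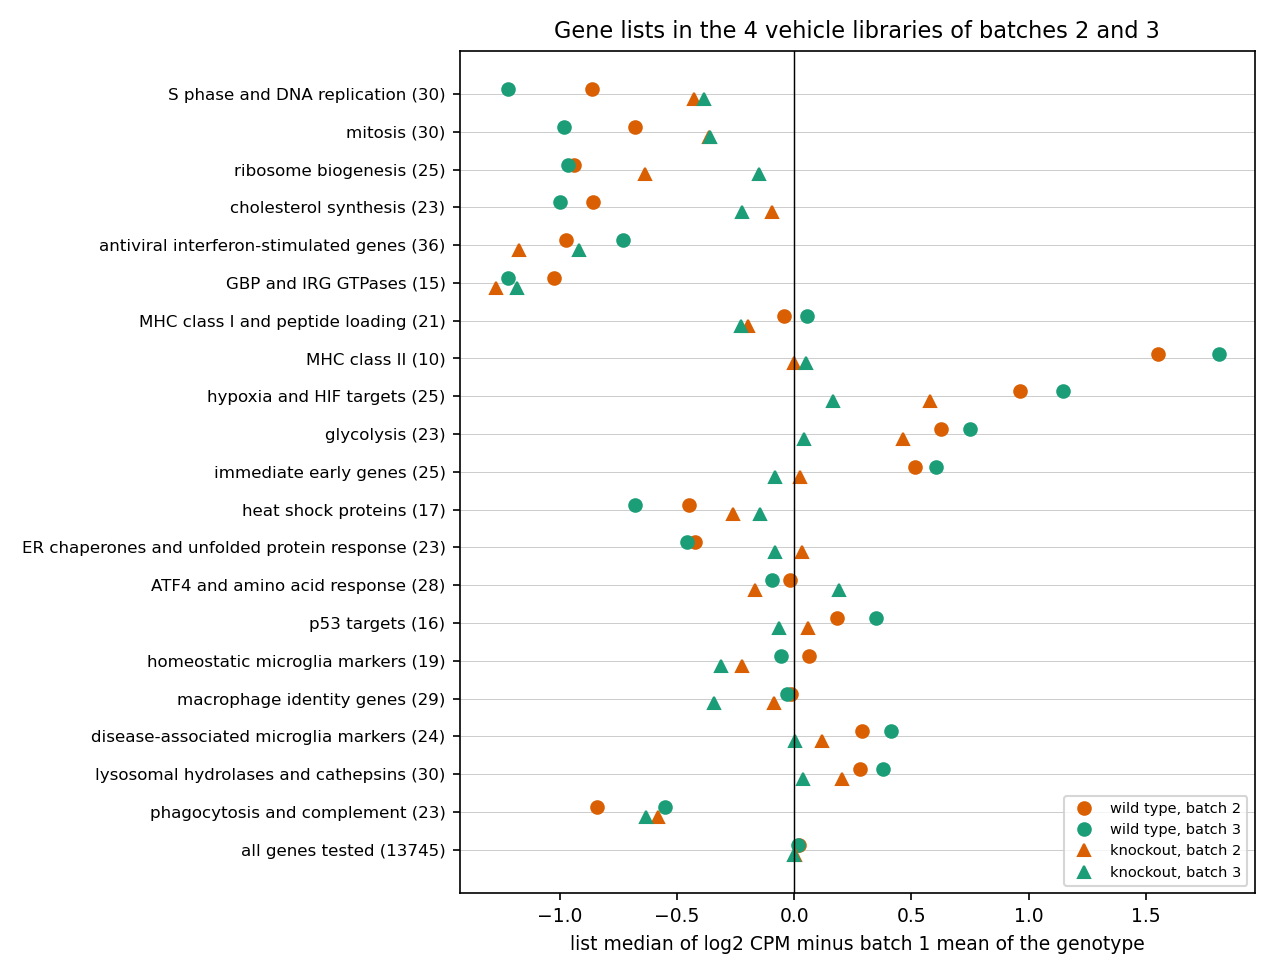
Gene lists in the 4 later vehicle libraries. Each point is the median, over the tested members of a list (their number in parentheses), of the log2 CPM of 1 library minus the mean of the batch 1 libraries of its genotype. The antiviral list lies between −1.17 and −0.73 in all 4 libraries, while MHC class II lies at 1.55 and 1.81 in the wild type and at 0.00 and 0.05 in the knockout, and the proliferation and cholesterol lists lie lower in the wild type than in the knockout. Only 6 class II genes were high enough to be tested in the knockout alone.

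Interferon-stimulated transcripts were lower in the later batches of both genotypes. Of 36 tested antiviral genes, 33 fell and 1 rose (background 23.3% and 22.6%), with a median log2 change of −0.86 against 0.02 over all genes. Within genotypes 29 fell in the wild type (background 27%) and 31 in the knockout (background 11.5%), with medians of −0.86 and −0.97. The library medians were −0.97 in batch 2 and −0.73 in batch 3 of the wild type, and −1.17 and −0.92 in the same batches of the knockout. Without batch 2, 29 fell, and without batch 3, 33 fell.

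Mx1, an antiviral GTPase, fell most among the antiviral genes. It stood at 22.2, 22.8 and 22.3 CPM in wild-type batch 1 and at 1.54 and 4.26 CPM in batches 2 and 3. In the knockout it stood at 8.82, 7.87 and 8.37 CPM in batch 1, had no read in batch 2 and stood at 0.652 CPM in batch 3 (log2 change −3.48, SE 0.41, edgeR adjusted p = 6.18e-05). With no read in 1 library that log2 change depends on the prior count of the fit, and the 3-read limit of that library was 0.13 CPM. Every later library lay below every batch 1 library of its genotype, as in 18.5% of the genes tested.

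Ifit1 and Ifit3, which bind viral RNA, fell in both genotypes. Ifit1 went from 64.0, 55.1 and 54.4 CPM in wild-type batch 1 to 10.2 and 5.8 CPM, and from 34.9, 32.1 and 34.3 CPM in knockout batch 1 to 11.3 and 16.5 CPM (log2 change −1.99, SE 0.29, edgeR adjusted p = 0.000265). Ifit3 went from 32.9, 30.9 and 39.5 to 5.18 and 6.98 CPM in the wild type and from 19.5, 18.1 and 20.6 to 6.5 and 6.18 CPM in the knockout (log2 change −2.04, SE 0.17, edgeR adjusted p = 3.37e-06). The drop of Ifit1 was 1.58 log2 units smaller in the knockout (edgeR interaction adjusted p = 0.000794). That of Zbp1, a sensor of Z-form nucleic acid, was larger there, at −2.83 in the knockout against −1.29 in the wild type (interaction −1.54, edgeR adjusted p = 0.000852).

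Cmpk2, Parp14 and Oasl1 had no called genotype interaction. Cmpk2, a mitochondrial nucleotide kinase, went from 101, 103 and 107 to 27.0 and 32.9 CPM in the wild type and from 50.2, 51.8 and 50.6 to 14.1 and 17.8 CPM in the knockout (log2 change −1.73, SE 0.09, edgeR adjusted p = 9.93e-08). Parp14, a mono-ADP-ribosyltransferase, went from 240.2, 247 and 204 to 81.0 and 87.0 CPM and from 184, 201 and 202 to 66.3 and 76.7 CPM in the same order (log2 change −1.46, SE 0.08, edgeR adjusted p = 9.93e-08). Oasl1, a regulator of Irf7 translation, went from 196, 182 and 204 to 62.0 and 72.2 CPM and from 191, 187 and 187 to 65.2 and 96.5 CPM (log2 change −1.37, SE 0.11, edgeR adjusted p = 2.06e-06). The genotype interactions of these genes were 0.11, 0.00 and 0.31 log2, with standard errors of 0.16, 0.14 and 0.17. Rsad2, which codes for viperin (−1.17), Isg15, a ubiquitin-like modifier (−0.89), and Irf7, the amplifier of interferon production (−0.54), also fell. Ifi27l2a rose, and Bst2 and Oas3 did not pass the test. The interaction was called for Irf7 (−0.66, edgeR adjusted p = 0.00728), with −0.22 in the wild type and −0.88 in the knockout, and for Ifi27l2a (−0.67, edgeR adjusted p = 0.0140).

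**Figure D3:**
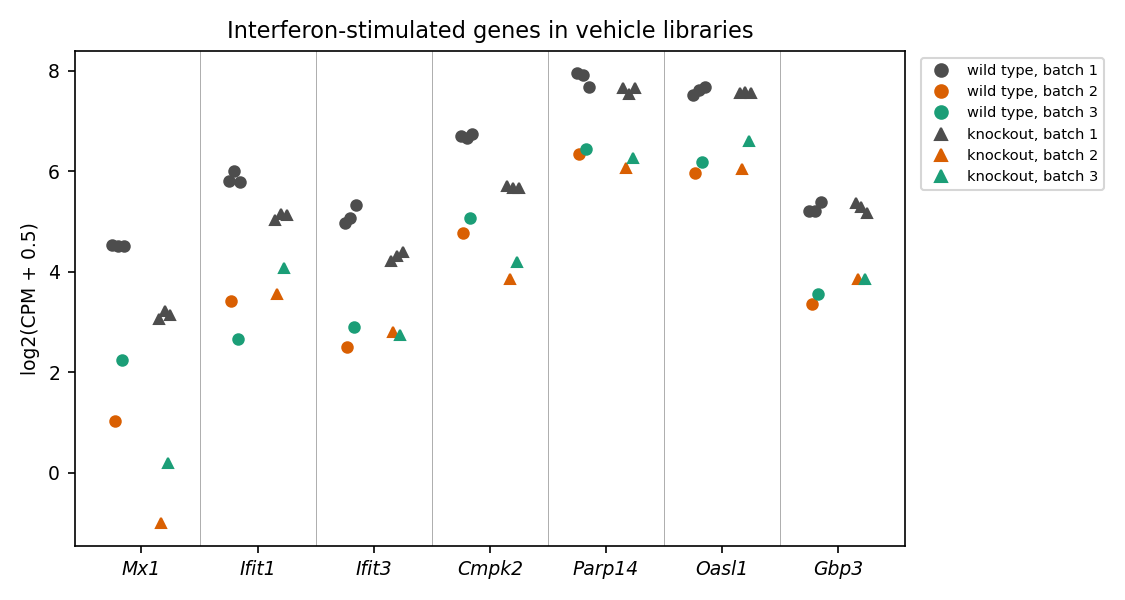
Levels of 7 interferon-stimulated genes in the 10 vehicle libraries, as log2(CPM + 0.5), with circles for the wild type and triangles for the knockout. In each gene the 4 later libraries lie below the batch 1 libraries of their genotype, a separation found in 18.5% of the genes tested.

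The GTPases of the GBP and IRG families fell as well. Of 15 tested, 13 fell and 1 (Gbp8, log2 change 1.15, SE 0.44, edgeR adjusted p = 0.0465) rose, with a median of −1.05, and 10 of 16 fell without batch 2. The call of Gbp8 was lost on leaving out any 1 of 7 libraries in turn (edgeR adjusted p from 0.0530 to 0.141). Gbp3 went from 36.6, 36.4 and 41.3 to 9.75 and 11.4 CPM in the wild type and from 38.6, 41.0 and 35.6 to 14.1 and 14.1 CPM in the knockout (log2 change −1.64, SE 0.11, edgeR adjusted p = 6.21e-07). Iigp1 was scarce throughout, at 3.82, 4.73 and 3.34 CPM in wild-type batch 1 and 0.185 and 0.414 CPM later, and at 1.46, 2.01 and 2.24 and 0.210 and 0.652 CPM in the knockout (log2 change −2.83, SE 0.41, edgeR adjusted p = 0.000131). Gm12250, another IRG gene named for its size of change, went from 16.5, 19.8 and 20.4 to 2.71 and 3.90 CPM and from 9.12, 8.21 and 6.41 to 0.294 and 1.52 CPM (log2 change −2.77, SE 0.28, edgeR adjusted p = 1.44e-05).

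Transducers of interferon signals moved in both directions. Stat2, a partner of Irf9, went from 83.1, 86.1 and 79.0 to 55.0 and 53.7 CPM in the wild type and from 57.5, 58.7 and 59.4 to 36.8 and 31.2 CPM in the knockout (log2 change −0.69, SE 0.08, edgeR adjusted p = 2.27e-05). Irf9 (−0.48), Irf1 (−0.47) and the receptor chain Ifnar1 (−0.23) also fell, Ifnar1 by a margin that was lost without the wild-type library of batch 3 (edgeR adjusted p = 0.134). Of the 24 genes of the JAK-STAT and IRF list 7 rose and 11 fell (background 22.6% and 23.3%, median −0.20). Those that rose include JAK, STAT and IRF genes and are not named here. With plain library totals 7 rose and 7 fell (median −0.13), against 3791 genes higher and 2556 lower of 13745. Without batch 2, 5 of 25 rose and 9 fell (median −0.23). Ifnb1, the gene of interferon beta, had 37 reads over the 10 libraries and reached 0.492 CPM at most in batch 1, 0.118 CPM in the later wild-type libraries and no read in the later knockout libraries. Its call (edgeR adjusted p = 0.0337) rests on those few reads and was lost on leaving out any 1 of 4 libraries in turn (edgeR adjusted p from 0.0622 to 0.107), and no fold is given. Ifng had no read.

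MHC class I genes did not follow the antiviral genes. Of 21 genes of antigen presentation by class I, 5 rose and 10 fell, with a median of −0.07, and without batch 2, 3 rose and 7 fell (median −0.06). B2m, the light chain, did not pass the test (log2 change 0.01, SE 0.08, edgeR adjusted p = 0.935), at 2060.5, 1982 and 2111 CPM in wild-type batch 1 and 1988 and 2343 CPM later. The subunits of the immunoproteasome Psmb8, Psmb9 and Psmb10 and the peptide transporter Tap1 were among those that fell. H2-D1, H2-Q7 and H2-T23 rose, and the H2 genes are near-identical copies of each other, so reads may be split between them. The call of H2-D1 was lost on leaving out any 1 of 7 libraries in turn (edgeR adjusted p from 0.0547 to 0.157), and that of Psmb9 on leaving out any 1 of 3 libraries in turn (edgeR adjusted p from 0.0558 to 0.0689).

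MHC class II transcripts were higher in the later batches, and the values came from the wild type. Of 10 tested genes 7 rose and 0 fell, with a median of 1.30, and without batch 2, 7 rose and 0 fell (median 1.41). In the wild type 8 rose (background 25.9%, median 1.88), and in the knockout 0 (background 10.4%, median 0.31). The knockout values are not a like comparison, since some of the 10 genes had almost no knockout reads. In the knockout alone only 6 were high enough to be tested, and 0 of 6 lies near the background. Cd74, the invariant chain, went from 156, 129.9 and 147 to 466 and 485 CPM in the wild type. In the knockout it stood at 153, 152 and 143 and then 194 and 132 CPM, overlapping batch 1. Its batch difference was −1.59 log2 (SE 0.17) apart between genotypes (knockout minus wild type, edgeR interaction adjusted p = 3.34e-05). The common term of Cd74 (log2 change 0.97, SE 0.27, edgeR adjusted p = 0.0131) was lost without the wild-type library of batch 3 (edgeR adjusted p = 0.0616).

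H2-Aa, the alpha chain of I-A, was at 1.16, 0.492 and 0.834 CPM in wild-type batch 1 and at 6.42 and 10.1 CPM later, and had no read in any knockout library. H2-Ab1, the beta chain, was at 0.116, 0.148 and 0.0981 CPM and then 2.90 and 3.31 CPM in the wild type, and reached 0.0870 CPM at most in the knockout. The fitted interaction of H2-Aa and H2-Ab1 did not pass the test, and knockout cells gave almost no reads to estimate it. Ciita, the master regulator of class II, did not pass the test (log2 change 1.32, SE 0.62, edgeR adjusted p = 0.0937). Markers of dendritic cells, which also carry class II, summed to 264 to 340.3 CPM in wild-type batch 1 and 347 to 466 CPM later, and to 284 to 301 and 284 to 285 CPM in the knockout. Of 9 such markers 1 of 4 tested rose (Itgax), Clec9a and Cd209a had no read, and their part in the class II difference was not tested.

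Genes of DNA replication were lower in the later batches. Of 30 tested S phase genes 28 fell and 0 rose, with a median of −0.70, and 26 fell without batch 2. All 30 fell in the wild type and 21 in the knockout, with medians of −1.03 and −0.39. The interaction was called in 24 of 30, each with a smaller drop in the knockout (background 10.7% in that direction).

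Mcm2, Mcm5 and Mcm6 code for parts of the replicative helicase. Mcm6 went from 655, 652 and 645 CPM to 321 and 255 CPM in the wild type and from 647, 652 and 643 CPM to 417 and 439 CPM in the knockout (log2 change −0.88, SE 0.11, edgeR adjusted p = 4.24e-05). The batch 1 values of Mcm6 were nearly the same in both genotypes, and the later values were lower in the wild type (interaction 0.58, edgeR adjusted p = 0.00320). Mcm2 went from 339, 339 and 333 to 189 and 144 CPM and from 248, 258 and 253 to 187 and 223 CPM (log2 change −0.65, SE 0.13, edgeR adjusted p = 0.00112), and Mcm5 changed by −1.29 in the wild type and −0.42 in the knockout. No later library overlapped batch 1 of its genotype in these 3 genes, a separation downward found in 18.5% of the genes tested.

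Mitotic genes fell in 29 of 30 cases and rose in 0, with a median of −0.61, and in 29 without batch 2. Mki67, the gene of the Ki-67 antigen, went from 465, 476 and 415 to 280.0 and 279 CPM in the wild type and from 444, 491 and 561 to 283 and 236 CPM in the knockout (log2 change −0.82, SE 0.09, edgeR adjusted p = 2.04e-05). Its drop was −0.69 and −0.94 in the genotypes, and that of Ccnb1, the mitotic cyclin B1, was −1.07 and −0.43 (interaction edgeR adjusted p = 0.000998). Top2a, the topoisomerase that untangles chromosomes, fell by less (log2 change −0.47, SE 0.09, edgeR adjusted p = 0.000595). The interaction was called in 20 of the 30 mitotic genes, each with a smaller drop in the knockout.

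Cyclins and inhibitors of G1 moved in both directions. Of 21 genes 10 rose and 6 fell (median 0.31), but without batch 2, 6 rose and 5 fell (median 0.04), and in the knockout alone 5 rose and 5 fell (median 0.12). The D cyclins Ccnd1 and Ccnd2, which open G1, fell, Ccnd2 from 262, 287 and 257 to 159 and 165 CPM in the wild type and from 209, 225 and 231 to 85.9 and 129 CPM in the knockout (log2 change −0.88, SE 0.11, edgeR adjusted p = 4.27e-05). The antiproliferative gene Btg1 rose from 78.7, 80.6 and 77.4 to 189 and 209 CPM and from 70.4, 76.8 and 80.2 to 158 and 120.0 CPM (log2 change 1.11, SE 0.10, edgeR adjusted p = 5.28e-06), and its relative Btg2 by 1.19. The CDK inhibitors p21 (Cdkn1a, 0.33), p27 (Cdkn1b) and p57 (Cdkn1c, 1.64) rose, Cdkn1a only with the wild-type library of batch 2 in the fit (without it, edgeR adjusted p = 0.0577). Myc did not pass the test (log2 change 0.31, SE 0.28, edgeR adjusted p = 0.380), with all values between 1.24 and 3.65 CPM.

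All 25 genes of ribosome biogenesis fell, with a median of −0.67, and 20 fell without batch 2. Ncl, the nucleolar protein nucleolin, went from 2900.0, 2874 and 2649 to 1456 and 1436 CPM in the wild type and from 2516, 2613 and 2661 to 1687 and 2036 CPM in the knockout (log2 change −0.71, SE 0.09, edgeR adjusted p = 6.33e-05). The library medians of the list were −0.94 in batch 2 and −0.97 in batch 3 of the wild type, and −0.64 and −0.15 in the same batches of the knockout, so the knockout library of batch 3 lay nearest to batch 1. Polr1b, a subunit of RNA polymerase I, showed that directly, at 179, 172 and 176 CPM in knockout batch 1, 115 CPM in batch 2 and 177 CPM in batch 3. For p53 targets 7 of 16 rose and 4 fell (median 0.18), and without batch 2, 4 of 17 rose and 2 fell (median 0.23).

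Targets of HIF were higher in the later batches. Of 25 tested genes 20 rose and 1 fell, with a median of 0.76, and 17 rose without batch 2. The library medians were 0.96 in batch 2 and 1.15 in batch 3 of the wild type, and 0.58 and 0.17 in the same batches of the knockout. Within genotypes 21 rose in the wild type and 10 in the knockout, and the interaction was called in 12, each with a smaller rise in the knockout (background 8.04% in that direction).

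Ankrd37, whose promoter holds 2 ACGTG motifs, went from 1.39, 1.72 and 1.52 CPM in wild-type batch 1 to 16 and 15.5 CPM (log2 change 2.45, SE 0.33, edgeR adjusted p = 0.000141). In the knockout it went from 6.52, 5.13 and 6.95 CPM to 30.7 and 10.7 CPM, so that batch 2 stood well above batch 3. Ndrg1, a stress-responsive gene, went from 10.8, 12.1 and 11.2 to 127 and 112 CPM in the wild type and from 24.6, 28.1 and 28.1 to 99.1 and 31.8 CPM in the knockout (log2 change 2.37, SE 0.44, edgeR adjusted p = 0.00182). The wild-type libraries started lower and ended higher than the knockout libraries in Ndrg1. Bnip3 went from 24.2, 26.5 and 25.4 to 179.7 and 147 CPM in the wild type and from 67.0, 76.5 and 72.3 to 135 and 61.7 CPM in the knockout (log2 change 1.63, SE 0.42, edgeR adjusted p = 0.0103). The knockout library of batch 3 thus lay below all knockout libraries of batch 1 for Bnip3, while that of batch 2 lay above them (interaction −2.23, edgeR adjusted p = 0.0106).

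Ero1l, an oxidase of the endoplasmic reticulum, rose in all later libraries, from 111, 123 and 99.5 to 385 and 448 CPM in the wild type and from 213, 232 and 231 to 707 and 354 CPM in the knockout (log2 change 1.58, SE 0.18, edgeR adjusted p = 4.68e-05). Slc2a1, the glucose transporter GLUT1, went from 78.1, 82.4 and 85.1 to 189 and 208 CPM and from 119, 135 and 137 to 207 and 180.2 CPM (log2 change 0.93, SE 0.12, edgeR adjusted p = 6.99e-05). Vegfa, the angiogenic factor, rose by 0.68, Egln3, an oxygen-sensing prolyl hydroxylase, by 1.31 and Pdk1, which holds pyruvate back from mitochondria, by 0.35. The call of Pdk1 was lost without the batch 2 library of the wild type or of the knockout (edgeR adjusted p = 0.0630 and 0.0502). The transcript of Hif1a itself fell, from 214, 221 and 182 to 152 and 174 CPM in the wild type and from 145, 154 and 151 to 108 and 119 CPM in the knockout (log2 change −0.37, SE 0.08, edgeR adjusted p = 0.00144). HIF is set mainly by protein stability, which RNA does not measure.

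**Figure D4:**
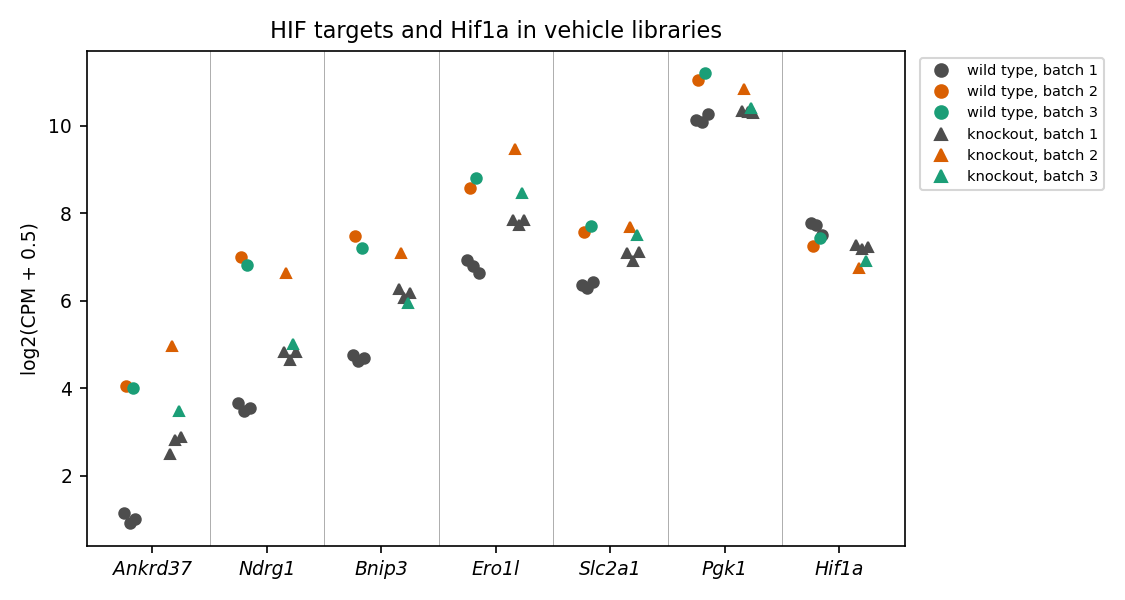
Levels of 6 HIF targets and of Hif1a in the 10 vehicle libraries, as log2(CPM + 0.5), with circles for the wild type and triangles for the knockout. The wild-type later libraries lie above batch 1 in the 6 targets, while the knockout library of batch 3 is close to batch 1 in Ndrg1 and Pgk1 and below it in Bnip3.

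Glycolytic genes rose in 18 of 23 cases and fell in 1, with a median of 0.42, and in 13 without batch 2. Pgk1, phosphoglycerate kinase, went from 1088, 1124 and 1233 to 2130.4 and 2360.4 CPM in the wild type and from 1268, 1288 and 1254 to 1846 and 1353 CPM in the knockout (log2 change 0.66, SE 0.12, edgeR adjusted p = 0.000585). Ldha, lactate dehydrogenase A, did not pass the test (log2 change 0.03, SE 0.06, edgeR adjusted p = 0.692), nor did Gapdh (0.07). The library medians were 0.63 in batch 2 and 0.75 in batch 3 of the wild type, and 0.46 and 0.04 in the same batches of the knockout, and the interaction was called with a smaller rise in the knockout in 16 genes. The glycolysis list shares Slc2a1 and Pdk1 with the HIF list.

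Other stress lists moved in both directions. Among ER chaperones and genes of the unfolded protein response 13 of 23 fell and 6 rose (median −0.25), and without batch 2, 4 rose and 10 fell (median −0.31). Hspa5, the chaperone BiP, went from 1849.6, 1912 and 1928 to 1019.7 and 944 CPM in the wild type. It stood at 1355, 1361 and 1322 and then 1397 and 1202 CPM in the knockout, overlapping batch 1, and the interaction was 0.90 (edgeR adjusted p = 5.24e-05). The common term (log2 change −0.49, SE 0.14, edgeR adjusted p = 0.0127) was lost without the wild-type library of batch 2 or of batch 3 (edgeR adjusted p = 0.0626 and 0.0598). Heat shock genes fell in 9 of 17 cases and rose in 2 (median −0.22), and without batch 2, 2 rose and 7 fell (median −0.28). Of 12 glucocorticoid targets 5 rose and 2 fell (median 0.26), with 9 higher in the wild type (median 0.52) and 4 in the knockout (median 0.09), and without batch 2, 3 rose and 0 fell (median 0.29).

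Targets of ATF4, the factor of the amino acid response, were split, with 6 of 28 higher and 9 lower (median 0.04), and without batch 2, 8 rose and 8 fell (median 0.18). Atf4 fell (log2 change −0.59, SE 0.11, edgeR adjusted p = 0.000595), and Asns, asparagine synthetase, did not pass the test (log2 change 0.05, SE 0.07, edgeR adjusted p = 0.582). Ddit3, the gene of CHOP, went from 9.48, 10.2 and 10.0 to 13.3 and 19.7 CPM in the wild type and from 36.8, 36.2 and 34.7 to 20.8 and 30.5 CPM in the knockout. The genotypes of Ddit3 moved in opposite directions (interaction −1.22, edgeR adjusted p = 0.00164), and the common term did not pass the test. For targets of NRF2, the antioxidant factor, 5 of 22 rose and 4 fell (median 0.04), and without batch 2, 5 of 23 rose and 1 fell (median 0.06).

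Hmox1 and Fth1 of the NRF2 list rose, while Ftl1, the ferritin light chain of the same list, did not pass the test (log2 change −0.03, SE 0.09, edgeR adjusted p = 0.805). Hmox1, heme oxygenase 1, went from 169, 168 and 178 to 339 and 375 CPM in the wild type and from 119, 122 and 116 to 326 and 219.9 CPM in the knockout (log2 change 1.13, SE 0.09, edgeR adjusted p = 2.57e-06). Fth1, the ferritin heavy chain, went from 4059, 3696 and 4192 to 6106 and 7494 CPM and from 3450.2, 3362 and 3231 to 5471 and 4749.7 CPM (log2 change 0.69, SE 0.07, edgeR adjusted p = 1.67e-05). Slc40a1, the iron exporter ferroportin, from the list of metal transport in which 2 of 12 rose and 3 fell (2 and 2 without batch 2), went from 4.16, 4.09 and 2.90 to 24.0 and 30.8 CPM and from 8.40, 5.77 and 6.68 to 31.8 and 27.4 CPM (log2 change 2.47, SE 0.17, edgeR adjusted p = 9.9e-07). All 4 later libraries lay above batch 1 of their genotype in Hmox1, Fth1 and Slc40a1, as in 16.4% of the genes tested.

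Immediate early genes rose in 8 of 25 cases and fell in 2, with a median of 0.65 in the wild type and 0.03 in the knockout, and without batch 2, 7 rose and 2 fell (median 0.55). Ier3, a survival gene, rose in both genotypes, from 17.5, 16.4 and 19.1 to 69.6 and 85.1 CPM and from 21.2, 19.1 and 26.9 to 78.3 and 84.5 CPM (log2 change 2.00, SE 0.11, edgeR adjusted p = 9.93e-08). Fos did not pass the test (log2 change −0.14, SE 0.15, edgeR adjusted p = 0.453).

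Microglial and macrophage identity genes were mixed. Of 19 homeostatic markers 2 rose and 6 fell (median −0.15), and without batch 2, 1 rose and 6 fell (median −0.23). Of 29 macrophage identity genes 4 rose and 8 fell (median −0.12), and without batch 2, 3 rose and 7 fell (median −0.15). With both later batches in the fit, the shares that rose lay below the background of 22.6%. Those that fell lay somewhat above that of 23.3%, each by few genes. Without batch 2 the shares that fell also lay above their background, which was 2150 of 14398 genes. Spi1 went from 531, 476 and 556 to 247 and 261 CPM in the wild type and from 423, 423 and 414 to 278 and 332 CPM in the knockout (log2 change −0.74, SE 0.11, edgeR adjusted p = 0.000126). Csf1r went from 962, 925 and 939 to 572 and 571 CPM and from 469, 502 and 501 to 355 and 473 CPM (log2 change −0.48, SE 0.10, edgeR adjusted p = 0.00152). Both genes changed more in the wild type, with log2 changes of −1.04 against −0.46 for Spi1 and −0.72 against −0.25 for Csf1r (edgeR interaction adjusted p = 0.00382 and 0.0172). The interaction of Csf1r was lost without the batch 3 library of the wild type or of the knockout (edgeR adjusted p = 0.0723 and 0.108).

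Cx3cr1, the fractalkine receptor, fell from 124, 126 and 113 to 41.0 and 56.1 CPM in the wild type and from 81.9, 91.4 and 84.9 to 64.5 and 54.8 CPM in the knockout (log2 change −0.91, SE 0.14, edgeR adjusted p = 0.000267). P2ry12 (−0.36), Aif1 (−0.24), Itgam (0.17) and Ptprc (−0.19) did not pass the test. Tmem119, 1 of the 2 homeostatic markers that rose, changed by 0.44 log2 (edgeR adjusted p = 0.0191). Its later levels were 16.9 to 18.3 CPM in the wild type, within the batch 1 range of 14.5 to 18.5 CPM. In the knockout they were 10.4 to 10.8 CPM, above 5.77 to 6.98 CPM in batch 1. The call was lost without the knockout library of batch 2. The 4 macrophage identity genes that rose are not named here. Msr1, scavenger receptor A, went from 119, 136 and 135 to 16.5 and 23.8 CPM in the wild type and from 16.6, 16.6 and 18.5 to 10.5 and 9.61 CPM in the knockout (log2 change −1.74, SE 0.33, edgeR adjusted p = 0.00182). The batch 1 level of Msr1 was several times higher in the wild type, and the later wild-type levels came near those of the knockout (interaction 1.91, edgeR adjusted p = 5.81e-06).

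Genes of phagocytosis and complement fell in 14 of 23 cases and rose in 3, with a median of −0.66, and 12 fell without batch 2. C1qa, a chain of complement C1q, went from 137, 133 and 177 to 62.3 and 54.0 CPM in the wild type and from 1.57, 2.48 and 2.01 to 0.126 and 0.217 CPM in the knockout (log2 change −1.60, SE 0.23, edgeR adjusted p = 0.000177). The 3-read limits of those 2 later knockout libraries were 0.13 and 0.136 CPM, so the knockout change of C1qa and its interaction (−2.15) rest on few reads. Fcgr1, the high-affinity Fc receptor, is also raised by interferon, and went from 230.4, 239.8 and 276 to 87.8 and 78.9 CPM and from 128, 111 and 122 to 64.2 and 77.6 CPM (log2 change −1.16, SE 0.14, edgeR adjusted p = 5.26e-05). Tlr2 fell from 314, 314 and 299 to 94.2 and 91.2 CPM and from 253, 241 and 247 to 103 and 140.2 CPM (log2 change −1.37, SE 0.13, edgeR adjusted p = 9.73e-06), and 15 of 28 Toll-like receptor and NF-kB genes fell while 4 rose, and without batch 2, 3 rose and 12 fell (median −0.20).

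Markers of disease-associated microglia, a lipid-handling state, rose in 12 of 24 cases and fell in 4 (median 0.23), and without batch 2, 10 rose and 4 fell (median 0.17). Spp1, osteopontin, rose from 7779, 7521 and 7121 to 11359 and 14059 CPM in the wild type and from 911, 822 and 761 to 1408 and 1632 CPM in the knockout (log2 change 0.82, SE 0.08, edgeR adjusted p = 6.94e-06). Gpnmb, a glycoprotein of lysosomal stress, rose from 2878, 3004 and 3029 to 5515 and 5804 CPM and from 2762, 2820.0 and 2729.7 to 4744 and 3876 CPM (log2 change 0.79, SE 0.07, edgeR adjusted p = 6.98e-06). Apoe rose by 0.63 (SE 0.08), with 0.60 and 0.66 in the genotypes. The markers did not move as 1 block. Trem2, the receptor that drives that state, fell (log2 change −0.68, SE 0.10, edgeR adjusted p = 0.000116), as did Lpl, lipoprotein lipase, from 4277, 4687 and 4153 to 1409.7 and 1481 CPM and from 2424, 2449 and 2407 to 1495 and 1311 CPM (log2 change −1.18, SE 0.13, edgeR adjusted p = 3.37e-05).

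Lysosomal enzymes rose in 16 of 30 cases and fell in 2, by small amounts (median 0.23), and 11 rose without batch 2. Ctsd, cathepsin D, was an example, at 893, 847 and 971 CPM in wild-type batch 1 and 1068 and 1175 CPM later, and at 979.9, 978 and 936 and 1189 and 1267 CPM in the knockout (log2 change 0.33, SE 0.06, edgeR adjusted p = 0.000814). Ctsd is also counted in the disease-associated list.

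Chemokines and inflammatory mediators were divided. Of 14 chemokines 4 rose and 8 fell (median −0.67), and without batch 2, 5 of 15 rose and 8 fell (median −0.46). Ccl2 and Ccl7, which draw monocytes, were among those that fell, Ccl2 from 146, 140.2 and 168 to 31.3 and 56.8 CPM in the wild type and from 86.0, 76.3 and 84.8 to 16.2 and 36.9 CPM in the knockout (log2 change −1.71, SE 0.21, edgeR adjusted p = 0.000109). Ccl7 fell by 2.16 log2 units (SE 0.25). Gpr84, a receptor of medium-chain fatty acids, went from 24.9, 21.1 and 24.4 to 3.33 and 3.19 CPM and from 26.9, 27.0 and 24.6 to 7.76 and 11.0 CPM (log2 change −2.05, SE 0.22, edgeR adjusted p = 2.57e-05).

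Nos2, inducible nitric oxide synthase, showed the largest rise among the genes named for their size of change. It stood at 6.36, 6.10 and 5.15 CPM in wild-type batch 1, 77.6 CPM in batch 2 and 220.2 CPM in batch 3. In the knockout it went from 3.76, 2.40 and 3.34 CPM to 17.8 and 17.5 CPM (log2 change 3.71, SE 0.46, edgeR adjusted p = 0.000217). Neither genotype overlapped, as in 16.4% of the genes tested, and the naming rule required the same sign in all 4 later libraries. Il1b (log2 change 0.47, SE 0.37, edgeR adjusted p = 0.307) and Tnf (log2 change 0.01, SE 0.23, edgeR adjusted p = 0.985) did not pass the test. In the list of 33 inflammatory mediators 10 rose and 8 fell (median 0.05), and without batch 2, 10 rose and 6 fell (median 0.34).

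The batch difference was larger in the wild type. Fitted within genotypes, 7278 genes (53%) passed in the wild type and 3006 (21.9%) in the knockout, and the median absolute log2 change was 0.48 and 0.26. Of the genes called, 2384 were called in both in the same direction, which is 32.8% of the wild-type calls and 79.3% of the knockout calls. Across genes the log2 changes had a Pearson correlation of 0.41 and a Spearman correlation of 0.57, which describe libraries that share batch and treatment. The test of the difference itself, the interaction of genotype and batch, was called in 2574 genes (18.7%). In 2337 of these the absolute change was larger in the wild type, whether or not it was called there. The count of interactions was 1271 without the wild-type library of batch 3, and 298 with all 20 libraries in the fit, and scaling by plain library totals put the share of upward interactions at 45.9% of the calls against 57.1%. Il1r2, the decoy receptor of interleukin 1, was among the 5 largest interactions downward, at 0.231, 0.591 and 0.981 CPM in wild-type batch 1 and 8.02 and 14.1 CPM later, and at 0.652, 1.97 and 1.51 and 0.881 and 1.17 CPM in the knockout (interaction −4.57, SE 0.66, edgeR adjusted p = 0.000254). Arg1, arginase 1, went from 0.231, 0.886 and 0.540 to 4.26 and 20.8 CPM in the wild type and from 0.153, 0.813 and 0.275 to 0.126 and 0.652 CPM in the knockout (interaction −4.54, edgeR adjusted p = 0.0480). The interaction of Arg1 was lost on leaving out any 1 of 9 libraries in turn (edgeR adjusted p from 0.0520 to 0.169).

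**Figure D5:**
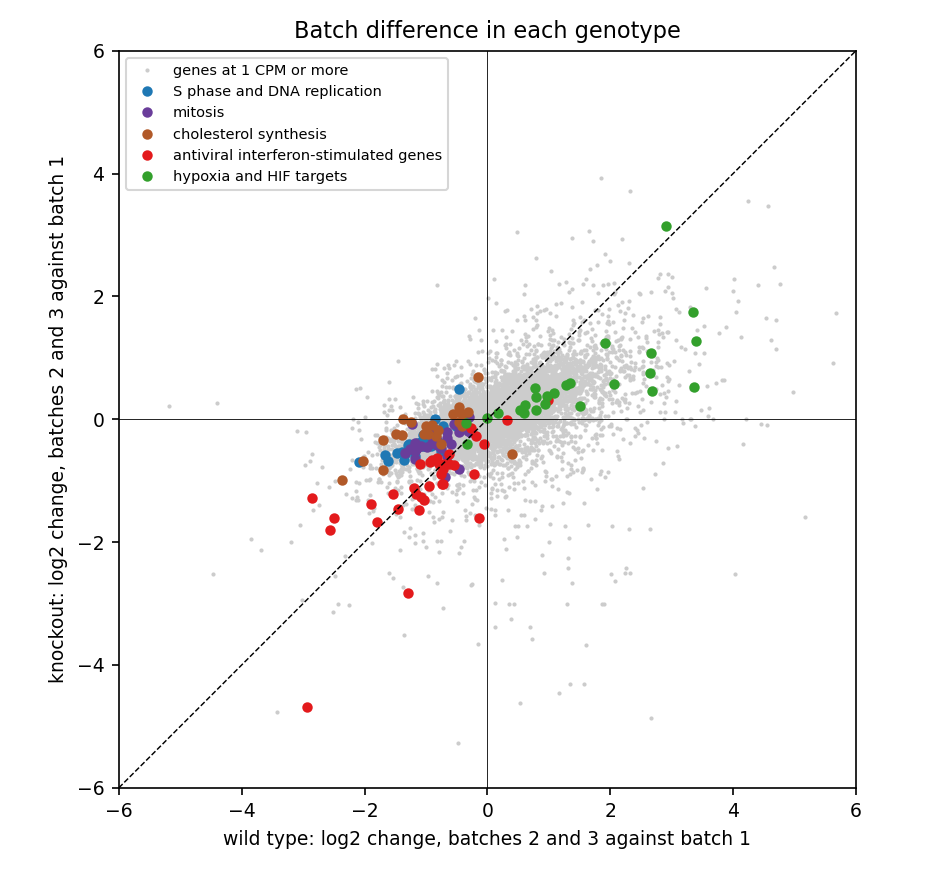
Log2 change of batches 2 and 3 against batch 1 in the wild type (x axis) and the knockout (y axis). Each point is a gene at 1 CPM or more in either set, with 3 of 11893 such genes outside the axes, and the dashed line marks equal change. The antiviral genes scatter about the line, while the S phase, mitosis, cholesterol and HIF genes lie closer to zero on the knockout axis.

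Cholesterol synthesis separated the genotypes. Of 23 genes 21 fell in the wild type (median −0.91) and 7 in the knockout (median −0.17), and 0 rose in either. The interaction was called in the direction of a smaller drop in the knockout in 18 genes and the other way in 1. With genotype as a covariate 16 fell, and without batch 2, 0 rose and 17 fell (median −0.56). Idi1, an isomerase of the isoprenoid step, went from 47.4, 43.7 and 39.4 to 15.5 and 11.2 CPM in the wild type and from 43.6, 43.4 and 43.4 to 24.0 and 24.9 CPM in the knockout (log2 change −1.24, SE 0.16, edgeR adjusted p = 6.54e-05), and its batch difference was 0.88 log2 apart (edgeR interaction adjusted p = 0.00275). Sc5d, a late sterol desaturase, went from 76.5, 81.6 and 83.8 to 48.4 and 47.0 CPM and from 111, 109.8 and 109 to 79.4 and 87.4 CPM (log2 change −0.57, SE 0.08, edgeR adjusted p = 0.000127).

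Between batches 2 and 3 the 5 called genes, Acod1, Ccl2, Ifitm3, Il1rn and Mmp9, were all higher in batch 3. Acod1, which makes itaconate, stood at 75.8 CPM in wild-type batch 2 and 154 CPM in batch 3, and at 64.7 and 117 CPM in the knockout (log2 change 0.94, SE 0.10, edgeR adjusted p = 0.00769). Il1rn, the interleukin-1 receptor antagonist, went from 67.4 to 164 CPM and from 54.6 to 83.5 CPM (log2 change 0.95, SE 0.14, edgeR adjusted p = 0.0450). Batch 1 lay between the later batches for Il1rn, at 95.3, 108 and 99.3 CPM in the wild type and 69.3, 70.9 and 64.6 CPM in the knockout. Mmp9, a matrix metalloproteinase, went from 59.1 to 183 CPM and from 1.34 to 4.00 CPM (log2 change 1.57, SE 0.21, edgeR adjusted p = 0.0220). Ifitm3, an antiviral membrane protein, went from 33.4 to 95.4 CPM and from 3.27 to 6.35 CPM (log2 change 1.30, SE 0.19, edgeR adjusted p = 0.0450), and stayed below batch 1 in both. With 1 library per genotype in each of the batches compared, these values rest on 4 libraries, and leaving out 1 library at a time gave 0 to 906 calls, the highest without the wild-type library of batch 3.

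Batch 2 and batch 3 medians had opposite signs in 6 of 45 lists. Among them were the ATF4 list (−0.16 and 0.19), inflammatory mediators (−0.12 and 0.32) and replication-dependent histones (−0.79 and 0.06), and the other 3 were marker lists of other cell types with few tested genes. For the antiviral list they were −1.05 in batch 2 and −0.76 in batch 3 against batch 1, with 31 and 29 of 36 genes falling (background 17.8% and 16.1%). The S phase list had medians of −0.66 and −0.76, with 24 and 27 of 30 falling. The HIF list had medians of 0.83 and 0.78, with 21 and 18 of 25 rising (background 17.5% and 15.7%). Mitochondrially encoded genes had medians of 1.61 and 0.56 over 10 genes, of which mt-Co1 stood at 1520.3, 1042 and 755 CPM in wild-type batch 1 and 4934 and 2096 CPM later, and at 655, 438 and 633 and 4491 and 1782 CPM in the knockout. The comparisons share the batch 1 libraries.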

How the data were processed

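Poly(A) RNA-seq counts per gene were analysed for the 10 vehicle libraries. The authors deposited raw counts in 1 table of 56941 gene IDs. Per the submitters' processing notes, FastQC, Trim Galore, STAR, DESeq2 and the GRCm39 build were named, without versions, while the tool that counted reads, its strand setting and its annotation were not given in the sources used here. Symbols were matched for 51882 IDs (91.1%), the ID with most reads was kept where a symbol repeated, and at most 0.63% of a library's counts lay in IDs without a symbol.

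Genes were kept with filterByExpr (13745 tested, 32151 with no read in vehicle libraries), scaled by TMM and tested with edgeR 4.0.16 (quasi-likelihood) and limma 3.58.1 in R 4.3.3, with genotype as a covariate and Benjamini-Hochberg adjustment at 0.05. Further fits took the later batches singly or a genotype-by-batch term. CPM use TMM-scaled library sizes, and log2 CPM a prior count of 2. A library total of 15866749 to 26039814 counts puts 3 reads at 0.115 to 0.189 CPM, which covers counting error only. The test was tried on simulated data first.

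Alternatives were RLE factors, plain totals, no filter, DESeq2 1.42.0, limma-voom, all 20 libraries, a replicate block, each genotype alone, without each later batch, batch as 3 levels, and leaving out each library. RefSeq promoter windows (GRCm38.p6) were searched for motifs, and no coordinates of the count table's build were used.

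The members and the 45 gene lists (949 genes) were chosen with earlier results of these data known. The rule for naming took a panel, the 10 largest changes each way at 5 CPM or more with the same sign in all 4 later libraries, up to 2 called members each way per list, and the 5 largest each way between batches 2 and 3 and for the interaction, 186 genes in all. The text names a subset picked after the values were seen, together with genes outside the rule that were also picked after their values were seen: Actb, Bnip3, Bst2, C1qa, Ccnb1, Cd68, Cd74, Cdkn1b, Cdkn1c, Ciita, Ctsd, Egln3, Fasn, Ftl1, Gapdh, H2-D1, Ifnar1, Ifnb1, Ifng, Iigp1, Irf9, Itgb3, Ldha, Mcm5, Ndrg1, Oas3, Oasl1, Pdk1, Pgk1, Polr1b, Psmb8, Psmb9, Ptprc, Rsad2, Tap1, Tyrobp and Vegfa. Some genes are not reported here by name, and list counts include them.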

Additional observations from a re-analysis of the deposited data

Results flagged for a closer look

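In the 5 vehicle libraries of a genotype, a library was taken to stand apart where its gap to the nearest other library was over 0.71 of the whole range (Dixon's ratio). This held in 23 of 256 sets of values over 121 genes named in the text and the library measures. Each set mixes batches, and many of the genes were picked after their values were seen. No rate expected by chance can therefore be set beside that count. The knockout library of batch 2 stood lowest and apart with a ratio of 0.779 for Csf1r and 0.892 for Polr1b. The knockout library of batch 2 stood highest and apart with a ratio of 0.782 for Ankrd37, 0.799 for Bnip3, 0.87 for Egln3, 0.716 for Ero1l, 0.74 for F13a1, 0.74 for Malat1, 0.903 for Ndrg1 and 0.833 for Pgk1. The knockout library of batch 3 stood lowest and apart with a ratio of 0.753 for Cd68. The knockout library of batch 3 stood highest and apart with a ratio of 0.881 for Mmp9 and 0.956 for Tnf. The wild-type library of batch 2 stood lowest and apart with a ratio of 0.838 for Acod1 and 0.771 for Tnf. The wild-type library of batch 2 stood highest and apart with a ratio of 0.731 for Malat1. The wild-type library of batch 3 stood highest and apart with a ratio of 0.804 for Arg1, 0.77 for Il1b, 0.787 for Itgam, 0.859 for Itgb3 and 0.786 for Mmp9. The mitochondrial share of the wild-type library of batch 2 had a ratio of 0.776, and Malat1 CPM of the library total in the knockout library of batch 2 had 0.745.

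The batch difference itself differed between the genotypes in 52 of the named genes (edgeR interaction at an adjusted p under 0.05, knockout minus wild type, log2). It was positive, so that the knockout fell less or rose more, for Msr1 (1.91), Ifit1 (1.58), Gpr84 (1.36), Ccl7 (1.34), Hspa5 (0.90), Ifit3 (0.89), Idi1 (0.88), Mcm5 (0.86), Fcgr1 (0.81), Lpl (0.81), Cx3cr1 (0.79), Mt1 (0.77), Mcm2 (0.72), Tlr2 (0.71), Polr1b (0.69), Ccnb1 (0.65), Fasn (0.65), Mcm6 (0.58), Spi1 (0.57), Atf4 (0.48), Ncl (0.48), Csf1r (0.48), Actb (0.47) and Sc5d (0.36). It was negative for Il1r2 (−4.57), Arg1 (−4.54), Gbp8 (−2.67), Bnip3 (−2.23), Mturn (−2.16), C1qa (−2.15), Itgax (−1.73), Cd74 (−1.59), Zbp1 (−1.54), Egln3 (−1.47), Ddit3 (−1.22), Aif1 (−1.03), H2-T23 (−0.81), Slc40a1 (−0.80), Slc2a1 (−0.71), Ifi27l2a (−0.67), Irf7 (−0.66), H2-Q7 (−0.66), Pgk1 (−0.63), Vegfa (−0.58), Psmb9 (−0.52), Ptprc (−0.51), Abca1 (−0.49), Pdk1 (−0.49), Btg1 (−0.46), H2-D1 (−0.44), Cd68 (−0.44) and Cdkn1a (−0.44). Of these interactions 10 were called under all 17 alternatives and 42 were lost under at least 1. Leaving out 1 library was enough to lose the interaction of 23 genes, namely Abca1, Actb, Aif1, Arg1, Atf4, Btg1, C1qa, Cd68, Cdkn1a, Csf1r, Egln3, H2-D1, H2-Q7, Ifi27l2a, Ifit3, Irf7, Itgax, Mturn, Pdk1, Psmb9, Sc5d, Slc40a1 and Vegfa.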

How the results depend on the processing

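Counts of called genes changed little with RLE size factors, plain totals or limma-voom. For batches 2 and 3 against batch 1 the count of 6309 was 3798 with all 20 libraries in the fit and 2741 in the knockout alone, and 5102 to 7058 on leaving out 1 library at a time. For batch 2 it went from 4847 to between 1245 (without the wild-type library of batch 2) and 6267. For batch 3 it went from 4365 to 2768 with all 20 libraries, and to between 1333 (without the wild-type library of batch 3) and 6223. Between batches 2 and 3 the 5 calls were 64 with no filter on low counts, 32 by DESeq2, and 0 with all 20 libraries (480 at an unadjusted p under 0.05), and 0 to 906 on leaving out 1 library, with 91 without the knockout library of batch 3. The 2574 interactions were 298 with all 20 libraries and 1271 to 3831 on leaving out 1 library. The cause of these shifts was not tested.

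Within batch 1 no pairing by replicate number was seen. Same-numbered wild-type and knockout libraries had correlations of −0.018 to 0.02 between their deviations from the group means, and 1 of 3 matched its own number best. So few libraries cannot exclude a pairing. Numbers 4 and 5 stand for batches 2 and 3 in both genotypes. With the number as a replicate block the counts were 5117, 3448 for batch 2, 2671 for batch 3, 0 between batches 2 and 3 (401 at an unadjusted p under 0.05 in edgeR) and 2005 interactions.

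Of 121 named genes, 99 were called between batch 1 and the later batches, 67 of them under all 22 alternatives, while 32 lost the call under at least 1. The sign changed under some alternative for 21 named genes, for 16 of them without a call on either side, and for 5 with a call in the reported or the alternative value. In the knockout alone Arg1 stood at −0.078 (edgeR adjusted p = 0.960), Gbp8 at −0.21 (0.638) and Ddit3 at −0.48 (0.0483). In the wild type alone Cd68 stood at 0.23 (0.0202), and without batch 3 Il1rn stood at −0.45 (0.000451). Leaving out 1 library was enough to lose the common term of 14 genes, Acod1, Arg1, Cd74, Cdkn1a, Gbp8, H2-D1, Hspa5, Ifnar1, Ifnb1, Itgb3, Malat1, Pdk1, Psmb9 and Tmem119.

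Among the 37 lists with more than a few tested genes, 27 kept the sign of their median in all 21 alternatives checked. The fit with no filter on low counts was not among these alternatives. The lists that changed sign were MHC class I, ATF4 targets, NRF2 targets, metallothioneins, homeostatic markers, macrophage identity, inflammatory mediators, respiratory chain subunits, histones and nuclear long RNAs. Each later batch holds 1 library per genotype, so a batch 2 or batch 3 value has no replicate within a genotype, and depth limits genes near 0.115 to 0.189 CPM.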

Other observations

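The actin genes Actb and Actg1 and the crosslinker gene Flna fell in the later batches. Actb, the beta-actin gene used as a reference in many assays, went from 5209, 5507 and 5688 to 2781 and 2488 CPM in the wild type and from 5580.4, 5751 and 5792 to 3491 and 4125 CPM in the knockout (log2 change −0.81, SE 0.09, edgeR adjusted p = 2.57e-05). Actg1, gamma-actin, changed by −0.82 (SE 0.07) and Flna, the actin crosslinker filamin A, by −0.84 (SE 0.07). In these 3 genes no later library overlapped batch 1 of its genotype, as in 18.5% of the genes tested. Gapdh, another common reference, did not pass the test (log2 change 0.07, SE 0.07, edgeR adjusted p = 0.463). Of the 33 genes of actin, adhesion and matrix 6 rose and 11 fell, with a median of −0.13, against a background of 22.6% and 23.3%, and without batch 2, 6 rose and 9 fell (median −0.10). Itgb3, the integrin beta 3 chain, was among those that rose (1.60). Its call was lost on leaving out any 1 of 5 libraries in turn (edgeR adjusted p from 0.0512 to 0.336).

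Of 30 structural ribosomal proteins 14 rose and 0 fell, by small amounts (median 0.18). That count rests on batch 2 and the wild type, since without batch 2, 2 rose and 0 fell (median 0.12), and in the knockout alone 3 rose and 0 fell (median 0.08). Of the 19 aminoacyl-tRNA synthetases, which charge tRNAs for translation, 9 fell and 2 rose (median −0.14), and without batch 2, 2 rose and 5 fell (median −0.14). Genes of fatty acid synthesis and of the sterol sensor LXR fell in 10 of 15 cases and rose in 2 (median −0.31), with Fasn, fatty acid synthase, at −0.63 and Abca1, the cholesterol exporter, at −0.67. Without batch 2, 1 of 16 rose and 9 fell in that list (median −0.32). Nuclear-encoded subunits of the respiratory chain were split, 8 higher and 9 lower of 36 (median −0.04), and without batch 2, 4 rose and 2 fell (median −0.06). Mitochondrially encoded genes rose in 8 of 10 (median 1.19), but without batch 2, 3 rose and 0 fell (median 0.59), and in the wild type alone 2 rose and 0 fell (median 0.79). Mt1, a metallothionein that binds zinc, went from 279, 251 and 282 to 124 and 131 CPM in the wild type and from 384, 389 and 383 to 270.1 and 349 CPM in the knockout (log2 change −0.69, SE 0.13, edgeR adjusted p = 0.000955).

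Among the genes named for the size of their rise, F13a1, a transglutaminase of macrophages, went from 44.9, 41.0 and 45.4 to 174 and 308 CPM in the wild type and from 0.613, 0.770 and 0.824 to 4.45 and 1.61 CPM in the knockout (log2 change 2.37, SE 0.22, edgeR adjusted p = 1.51e-05). Zan went from 7.11, 4.97 and 4.56 to 39.7 and 45.0 CPM and from 3.80, 3.34 and 2.47 to 18.3 and 10.5 CPM (log2 change 2.57, SE 0.20, edgeR adjusted p = 2.4e-06). Mturn was near the limit of detection in batch 1, at 0.752, 0.345 and 0.785 CPM in the wild type and 0.958, 1.5 and 0.503 CPM in the knockout, and stood later at 8.45 and 12.9 CPM in the wild type and 4.53 and 3.04 CPM in the knockout (log2 change 3.00, SE 0.41, edgeR adjusted p = 0.000109). All 4 later libraries were above batch 1 of their genotype in F13a1, Zan and Mturn, as in 16.4% of the genes tested. The rule for these genes took only those with the same sign in all 4 later libraries. Their agreement was therefore largely set by the rule.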
